A study of Mus musculus with 96 samples.

Results

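To follow how gene expression in the undisturbed kidney varied over the circadian day, 12 kidney libraries of control mice (CON) were examined out of the 96 libraries of the series. They were chosen by their sample titles, which give the kidney, the control condition and the circadian time (CT), with 2 replicates each at CT4, CT8, CT12, CT16, CT20 and CT24. The mice were male, wild-type C57BL/6 animals of 6 to 8 weeks with food and water freely available, and the study describes sampling in constant darkness. Control mice were left undisturbed, whereas the sleep-deprived mice (SD) of the series were first kept moving in a slowly rotating drum for 10 h of their resting phase. The main comparison set the 4 libraries of CT4 and CT8 against the 4 of CT16 and CT20. Besides, CT12 was compared with CT24, any difference among the 6 times was tested, and a 24 h cosine curve (cosinor) was fitted to each gene. The same contrast in 12 SD kidney libraries and in 12 control liver libraries served for comparison. Levels are given as CPM, a gene's count scaled to a common library total, and contrasts are log2 fold changes, positive where the level at CT4 and CT8 was higher.

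The circadian clock of a mammalian cell is a feedback loop, in which the activators ARNTL (BMAL1) and CLOCK or NPAS2 switch on the period and cryptochrome genes, whose proteins then repress the activators. A second loop runs through the nuclear receptors REV-ERB and ROR, which repress or activate Arntl, and PAR bZIP factors such as DBP, TEF and HLF, opposed by NFIL3, carry the rhythm to output genes. In the kidney, filtration, urine volume and the excretion of sodium and potassium follow a daily rhythm, and genes for tubular transport are known clock outputs. How CT0 was set against the earlier light cycle is not given in the sources used here, so times are given as labelled.

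The 12 libraries held 32.2 to 58.3 M counts, with a median of 37.1 M. The kidney label held, since 9 proximal tubule markers summed to 23019 to 28243 CPM in every library. For 8 of the 12 libraries the time point in the sample characteristics differed from the title. With the times of the titles, the fitted peaks of 15 clock genes lay a median of 0.482 h from their peaks in control liver, where no label conflicts, against 5.12 h with the times of the characteristics, and the titles were used. Of the tested clock genes, Per1, Rora and Bhlhe40, each without a cosinor call in at least 1 of the organs, were not among the 15. Several libraries stood apart by markers of other tissues. CT8 replicate 1 held adrenal cortex transcripts, with a summed level of 22.3 CPM for 7 markers against 0.462 to 1.06 CPM in the others. CT20 replicate 1 held liver transcripts, with 189 CPM for 7 markers against 55.5 to 87.5 CPM. Both are called the odd libraries, and the main counts are also given without them. Fat markers (8 genes) summed to 53.8 to 788 CPM and were highest at CT24, with 596 and 788 CPM, and CT4 replicate 1 reached 655 CPM. Inner medulla markers (5 genes) reached 361 and 472 CPM at CT24 against 99.8 to 352 CPM elsewhere. In a bulk sample, fewer cells of a type cannot be told apart from less RNA per cell. The study calls the 2 libraries of a time biological repeats, but the labels name no animals, and p-values measure the spread between libraries.

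Of 20767 genes tested, 886 (4.27%) differed between the 2 pairs of times at an edgeR adjusted p under 0.05. A total of 364 (1.75%) were higher at CT4 and CT8, led by the clock activators Npas2 and Arntl, and 522 (2.51%) were higher at CT16 and CT20, led by the clock repressor Per3 and the nuclear receptor Nr1d2. The genes higher at CT4 and CT8 differed by more, with a median absolute log2 fold change of 0.48 against 0.34, and 58 of them passed 1 on the log2 scale against 32 in the other direction. Protein-coding genes made up 302 of the 364 and 483 of the 522. In 727 of the 886 genes the 4 and 4 libraries did not overlap, whereas 1874 (9.02%) of all tested genes had no overlap. The count fell to 432 without CT20 replicate 1, 492 without CT20 replicate 2 and 571 without CT4 replicate 1, and to 292 without both odd libraries, of which 267 were among the 886. With the fat score (the mean log2 CPM of the fat markers) as a covariate, 331 genes were higher at CT4 and CT8 and 339 at CT16 and CT20.

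All 19 members of the clock lists were followed, and 18 had counts enough to be tested. Of these, 5 were higher at CT4 and CT8 and 11 higher at CT16 and CT20, and the cosinor called 16 (852, or 4.1%, of all tested genes were called by the cosinor). Without both odd libraries the numbers were 3, 10 and 16. In the deposited counts Dbp, the PAR bZIP output factor, was at 0 in 8 libraries and at most 0.106 CPM in the others and was not tested. Whether these counts reflect its level in kidney was not tested. Together the clock genes formed an ordered series of fitted peaks over the day, with Cry1 at CT1.2, Nfil3 at CT4.0, Arntl at CT5.2, Npas2 at CT6.1, Nr1d1 at CT14.4, Nr1d2 at CT16.7, Ciart at CT16.9, Tef at CT17.7, Per3 at CT18.6 and Per2 at CT20.6. Neighbours in this order such as Nr1d2 and Ciart, with standard errors (SE) of 0.20 and 0.29 h, did not differ beyond their error, whereas Nr1d1, with an SE of 0.32 h, lay apart from Nr1d2.

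Among the activators, Arntl (chromosome 7, 113207465 to 113314126 on GRCm38), which encodes the BMAL1 subunit, stood at 49.2 and 49.2 CPM at CT4, 43.1 and 42.4 at CT8, 18.3 and 14.3 at CT12, 4.00 and 3.32 at CT16, 4.92 and 6.22 at CT20 and 29.4 and 27.2 at CT24. The 4 libraries of CT16 and CT20 were the lowest of all 12, and CT4 the highest. Its mean level was 46.0 ± 3.73 CPM at CT4 and CT8 and 4.62 ± 1.26 CPM at CT16 and CT20 (SD, n = 4), and the contrast was 3.36 (SE 0.11, edgeR adjusted p = 2.66e-08), about 10.3-fold. Npas2 (chromosome 1, 39193731 to 39363236), which can replace CLOCK as the partner of BMAL1, swung the most of the 3. It was at 23.0 and 27.3 CPM at CT4, 20.3 and 21.1 at CT8 and 8.21 and 6.32 at CT12, then at 1.01 and 1.21 at CT16, 1.23 and 1.41 at CT20 and 5.51 and 5.96 at CT24. The contrast was 4.24 (SE 0.13, edgeR adjusted p = 2.66e-08), or 18.9-fold, with no overlap between the groups. Clock (chromosome 5, 76209868 to 76304792) moved in the same direction over a narrow range, from 139 to 157 CPM at CT4 and CT8 to 106 to 112 CPM at CT16 and CT20, with a contrast of 0.42 (SE 0.05, edgeR adjusted p = 0.000407).

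Of the 6 repressors, Per1, Per2, Per3, Cry2 and Ciart were higher at CT16 and CT20, and Cry1 was higher at CT4 and CT8. Per2 (chromosome 1, 91415982 to 91459324), a period gene whose protein carries the repressor complex into the nucleus, was at 54.4 and 40.6 CPM at CT4, 23.0 and 16.1 at CT8, 29.4 and 35.0 at CT12, 74.8 and 89.3 at CT16, 98.4 and 97.99 at CT20 and 83.2 and 89.4 at CT24. It was lowest at CT8 and highest at CT20, and its contrast was -1.55 (SE 0.13, edgeR adjusted p = 8.24e-05). Per3 (chromosome 4, 151003652 to 151044665), a period paralog, had 13.8 to 28.1 CPM at CT4 and CT8 against 73.6 to 99.7 CPM at CT16 and CT20, a contrast of -2.09 (SE 0.08, edgeR adjusted p = 1.07e-07). Per1 (chromosome 11, 69095217 to 69109960) was at 12.7 to 41.2 CPM and 45.9 to 93.1 CPM in the same groups, and its CT16 replicates stood apart at 45.9 and 93.1 CPM. Its contrast was -1.48 (SE 0.20, edgeR adjusted p = 0.00175), but the cosinor did not call it (adjusted p = 0.0676).

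Ciart (chromosome 3, 95878503 to 95882251), also known as Chrono, a repressor of the BMAL1 and CLOCK complex, had the largest contrast of the 6. Its levels were 0.715 and 0.388 CPM at CT4, 0.480 and 0.301 at CT8, 1.56 and 4.24 at CT12, 9.57 and 10.4 at CT16, 5.56 and 4.51 at CT20 and 0.757 and 1.32 at CT24. They were near the bottom of the range at CT4, CT8 and CT24, higher from CT12 to CT20 and highest at CT16. The contrast was -3.92 (SE 0.33, edgeR adjusted p = 7.21e-05). Cry2 (chromosome 2, 92403646 to 92434043), a cryptochrome, was at 17.5 to 33.2 CPM at CT4 and CT8 and 28.0 to 40.5 CPM at CT16 and CT20, so the groups overlapped, with a contrast of -0.55 (SE 0.09, edgeR adjusted p = 0.00513). Cry1 (chromosome 10, 85131700 to 85185064), the other cryptochrome, ran out of step with the rest, at 31.5 and 28.0 CPM at CT4, 20.6 and 11.5 at CT8, 4.65 and 5.09 at CT12, 9.20 and 9.43 at CT16, 22.8 and 19.8 at CT20 and 31.7 and 33.0 at CT24. Both CT12 and CT16 were low and both CT4 and CT24 high. Its contrast of 0.65 (SE 0.16, edgeR adjusted p = 0.0423) was lost in 10 of 12 fits without 1 library, while the amplitude of 1.28 ± 0.13 (SE) on the log2 scale was called in all 12. Here amplitude means the distance from the mean of the fitted curve to its peak.

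By mean level the REV-ERB genes were highest at CT16. Nr1d1 (chromosome 11, 98767932 to 98775333), which encodes REV-ERB alpha, a repressor of Arntl, was at 10.2 and 12.1 CPM at CT4, 20.7 and 51.3 at CT8, 66.4 and 69.8 at CT12, 101 and 69.1 at CT16, 42.9 and 42.4 at CT20 and 11.1 and 14.3 at CT24. Its CT8 replicates differed, at 20.7 and 51.3 CPM, and the second overlapped CT20. Its CT16 replicates also differed, and the second, at 69.1 CPM, lay between the 2 of CT12. The contrast was -1.59 (SE 0.21, edgeR adjusted p = 0.0012) and the cosinor amplitude 1.52 ± 0.13 (SE). Nr1d2 (chromosome 14, 18204054 to 18239127), or REV-ERB beta, went from 47.0 to 75.3 CPM at CT4 and CT8 to 221 to 281 CPM at CT16 and CT20 with no overlap, a contrast of -2.07 (SE 0.10, edgeR adjusted p = 1.13e-06). Rora, a ROR receptor that activates Arntl, at 158 to 295 CPM at CT4 and CT8 and 223 to 276 CPM at CT16 and CT20, passed neither test (adjusted p = 0.112 and 0.554).

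Among the output factors, Tef (chromosome 15, 81802421 to 81826863), a PAR bZIP activator, was at 155 and 186 CPM at CT8 and 481 and 418 CPM at CT16. The 4 libraries of CT4 and CT8 lay at 155 to 206 CPM and those of CT16 and CT20 at 411 to 481 CPM, a contrast of -1.22 (SE 0.05, edgeR adjusted p = 2.11e-07). Hlf (chromosome 11, 90336536 to 90390895), its paralog, was highest at CT20, with 224 and 212 CPM, and had a contrast of -0.52 (SE 0.05, edgeR adjusted p = 0.00019). Nfil3 (chromosome 13, 52967209 to 52981073), which represses the same targets, was opposite in phase, at 24.3 and 29.4 CPM at CT4, 23.9 and 23.0 at CT8, 9.13 and 7.02 at CT12, 2.12 and 9.16 at CT16, 5.78 and 11.4 at CT20 and 20.5 and 25.3 at CT24. Its replicates at CT16 and CT20 were far apart but all below those of CT4 and CT8. The contrast of 1.86 (SE 0.34, edgeR adjusted p = 0.00991) was lost without CT20 replicate 1, and the peak lay at CT4.0 ± 0.57 h (SE). Bhlhe40 and Bhlhe41, repressors that bind the same sites as BMAL1, were both higher at CT16 and CT20, with contrasts of -0.67 (SE 0.09, edgeR adjusted p = 0.00147) and -1.40 (SE 0.12, edgeR adjusted p = 0.000102).

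**Figure D1:**
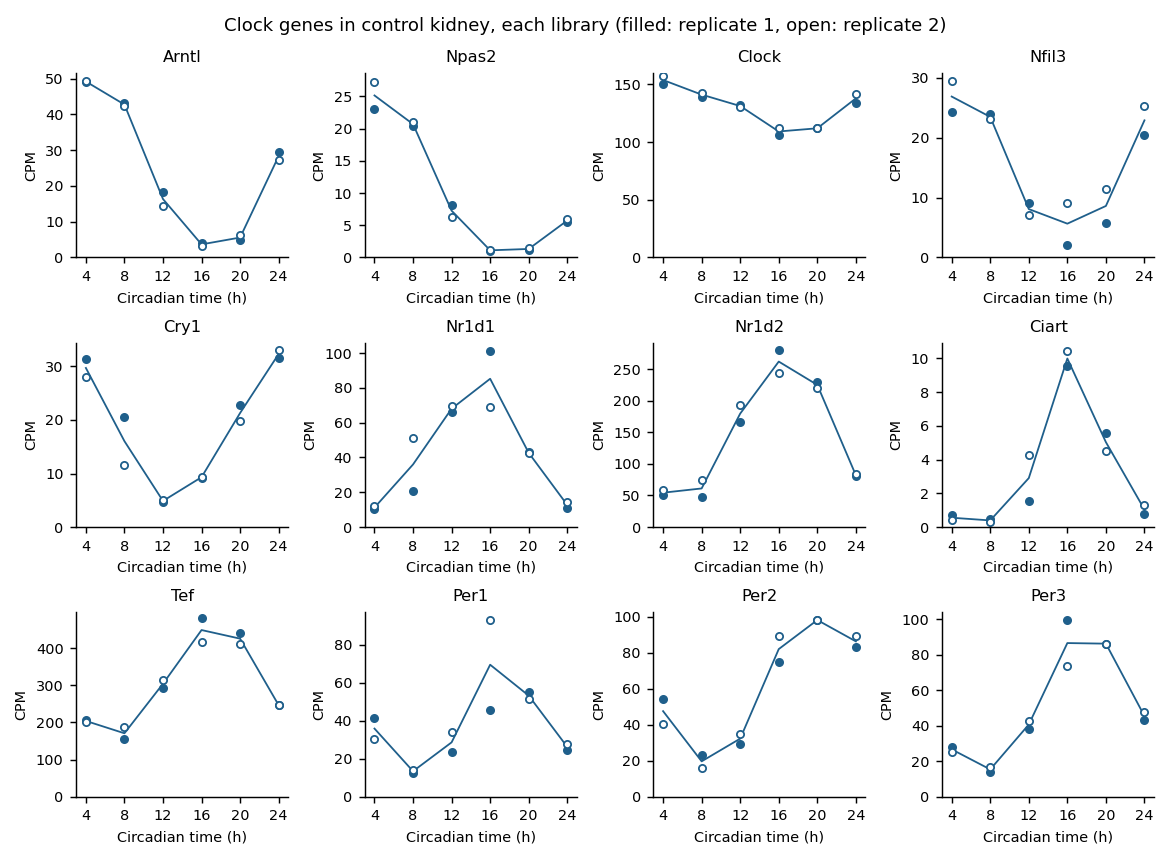
Levels of 12 clock genes in each control kidney library, in CPM from 0 on a linear axis, against circadian time in hours, with filled circles for replicate 1, open circles for replicate 2 and a line through the means. By their means, Arntl and Npas2 are highest at CT4, Ciart and the REV-ERB genes at CT16 and Per2 at CT20. The 2 replicates of Per1 at CT16 and of Nr1d1 at CT8 and CT16 are far apart.

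The clock is known to act through a few short promoter sequences, namely the E-box CACGTG bound by BMAL1 with CLOCK or NPAS2, the D-box TTATGTAA bound by PAR bZIP factors and NFIL3, and the response element TAGGTCA (RRE) bound by REV-ERB and ROR. Stretches of promoters from RefSeq (GRCm38.p6) are shown for 5 clock genes that differed in time of peak, 5′ to 3′ along the strand of the gene, with the motif in capitals.
Ciart: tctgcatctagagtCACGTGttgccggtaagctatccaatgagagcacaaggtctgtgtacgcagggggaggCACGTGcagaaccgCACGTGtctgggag
Cry1: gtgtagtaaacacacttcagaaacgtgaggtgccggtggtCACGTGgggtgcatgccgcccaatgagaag
Per3: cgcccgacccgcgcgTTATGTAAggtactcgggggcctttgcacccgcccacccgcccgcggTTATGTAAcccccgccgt
Nfil3: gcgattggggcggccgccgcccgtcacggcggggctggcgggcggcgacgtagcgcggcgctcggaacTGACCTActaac
Arntl: gacatttagggaaggcagaaagTAGGTCAg

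The stretch of Ciart, chr3:95882259-95882358 on the minus strand, holds 3 E-boxes that begin 116, 58 and 44 bases before the RefSeq start. That of Cry1, chr10:85185085-85185154 on the minus strand, holds 1 E-box 60 bases before it, yet the 2 genes peaked at CT16.9 and CT1.2. The stretch of Per3, chr4:151044806-151044885 on the minus strand, holds 2 D-boxes 205 and 158 bases before the start. In Nfil3, chr13:52981040-52981119 on the minus strand, the RRE stands on the other strand as TGACCTA, 12 bases before the start, and in Arntl, chr7:113207519-113207548 on the plus strand, it begins 30 bases after the start. These starts are the RefSeq transcript starts behind each window, which differ from the ends of the gene coordinates given above. Over windows from 250 bases before to 50 after the start, searched on both strands, the E-box was also found in Per1, Tef and Bhlhe41, and none of the 3 motifs in Npas2, Clock, Cry2, Nr1d1, Nr1d2, Rora or Hlf. An exact E-box occurred in 7.15% of all 32851 promoters, the D-box in 0.938% and the RRE in 2.61%. A match is a description of letters and not a binding site.

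Beyond the clock, 7 genes were among the 10 with the largest difference toward CT4 and CT8. Slc16a1 (chromosome 3, 104638668 to 104658462), which encodes the monocarboxylate transporter MCT1 for lactate and ketone bodies, was at 148 and 163 CPM at CT4, 172 and 149 at CT8, 93.9 and 73.1 at CT12, 38.0 and 43.4 at CT16, 63.3 and 53.3 at CT20 and 121 and 121 at CT24. All 4 libraries of CT16 and CT20 lay below the other 8, and the contrast was 1.71 (SE 0.11, edgeR adjusted p = 9.01e-06), or 3.26-fold. Ppard (chromosome 17, 28232700 to 28301474), a nuclear receptor for fatty acids, went from 44.6 to 60.6 CPM at CT4 and CT8 to 15.4 to 17.9 CPM at CT16 and CT20, a contrast of 1.74 (SE 0.11, edgeR adjusted p = 9.01e-06). Avpr1a (chromosome 10, 122448499 to 122453452), the vasopressin V1a receptor, stood at 25.2 to 28.7 CPM against 9.98 to 13.5 CPM, a contrast of 1.22 (SE 0.12, edgeR adjusted p = 0.000235). Dtx4 (chromosome 19, 12466338 to 12501454), an E3 ubiquitin ligase of the Deltex family, had 62.7 to 66.7 CPM against 22.8 to 29.3 CPM, a contrast of 1.35 (SE 0.08, edgeR adjusted p = 7.41e-06), with the smallest SE of the group.

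Cdkn1a (chromosome 17, 29090976 to 29100727), the cell cycle inhibitor p21, was at 12.1 to 14.9 CPM at CT4 and CT8 and 4.51 to 6.98 CPM at CT16 and CT20, a contrast of 1.22 (SE 0.12, edgeR adjusted p = 0.000181). Sdf2l1 (chromosome 16, 17130138 to 17132383), a cofactor of chaperones in the endoplasmic reticulum, stayed within 19.1 to 21.5 CPM at CT4 and CT8 and dropped to 7.32 to 11.98 CPM, a contrast of 1.21 (SE 0.14, edgeR adjusted p = 0.00060). Palm3 (chromosome 8, 84021471 to 84030295), a paralemmin family member, completed the 10 genes named by the rule, with 7.79 to 10.6 CPM against 2.63 to 4.16 CPM, a contrast of 1.42 (SE 0.14, edgeR adjusted p = 0.00022). All of these genes except Nfil3 kept their call in the 12 fits that each left out 1 library.

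In the other direction, Cyp24a1 (chromosome 2, 170482708 to 170497145), the hydroxylase that inactivates vitamin D, was at 28.3 and 39.4 CPM at CT4, 20.7 and 23.6 at CT8, 15.2 and 58.4 at CT12, 80.4 and 64.7 at CT16, 72.0 and 106 at CT20 and 11.8 and 12.6 at CT24. Its CT12 replicates were far apart, and CT24 was below all others. The contrast was -1.55 (SE 0.30, edgeR adjusted p = 0.0139), lost in 2 of 12 fits without 1 library, and the cosinor did not call it (adjusted p = 0.14). Nat8f6 (chromosome 6, 85808024 to 85820954), of an N-acetyltransferase family with close paralogs, went from 22.1 to 30.1 CPM to 54.3 to 80.8 CPM, a contrast of -1.31 (SE 0.12, edgeR adjusted p = 0.000105). Tspan4 (chromosome 7, 141475240 to 141493427), a tetraspanin, lay at 4.34 to 6.31 CPM against 10.2 to 15.6 CPM, a contrast of -1.23 (SE 0.13, edgeR adjusted p = 0.00034). Rnf24 (chromosome 2, 131298064 to 131352892), a RING finger protein, had 51.2 to 83.8 CPM against 101 to 309 CPM, and its CT16 replicates stood at 154 and 309 CPM. The contrast of -1.27 (SE 0.23, edgeR adjusted p = 0.00956) was kept in all 12 fits without 1 library.

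The cosinor asked which genes followed a smooth 24 h curve, and it called 852 genes, of which 741 were protein-coding. Their median amplitude was 0.30 on the log2 scale against 0.13 over all tested genes, 218 reached 0.5 and 77 reached 1. The SE of the peak time had a median of 0.709 h. The called genes were 562 in common with the contrast of the 2 pairs of times, which is 66.0% of the cosinor calls and 63.4% of the 886. Any difference among the 6 times was called in 932 genes (4.49%), of which 526 were cosinor calls, so 406 differed by time without a call for a smooth curve. The cosinor count fell to 557 without CT12 replicate 2 and 491 without CT24 replicate 1, and that for any difference to 304 without CT24 replicate 2, with 421 to 504 without CT12 replicate 1 or 2, CT20 replicate 1 or 2 or CT24 replicate 1. It rose to 1606 without CT16 replicate 1. Without both odd libraries they were 491 and 352.

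Without a covariate, fitted peaks were most frequent around CT16 and least frequent around CT12. A total of 227 called genes peaked within 2 h of CT16 and 146 of CT20, against 170 for CT4, 123 for CT8, 110 for CT24 and 76 for CT12. The median amplitude was lowest at CT16 and CT20, with 0.24 and 0.25, against 0.42 at CT4, 0.36 at CT8, 0.28 at CT12 and 0.45 at CT24. Fat and inner medulla markers moved with some of these windows. With the fat score as a covariate, 22 of the 110 genes of CT24, 26 of the 76 of CT12, 76 of the 170 of CT4 and 82 of the 227 of CT16 were still called, against 101 of the 123 of CT8 and 114 of the 146 of CT20, so that CT20 held the most of the genes still called. With the inner medulla score, 41, 34, 101, 120, 105 and 121 of them were still called, in the same order. Without both odd libraries the numbers were 57, 40, 108, 118, 57 and 71.

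**Figure D2:**
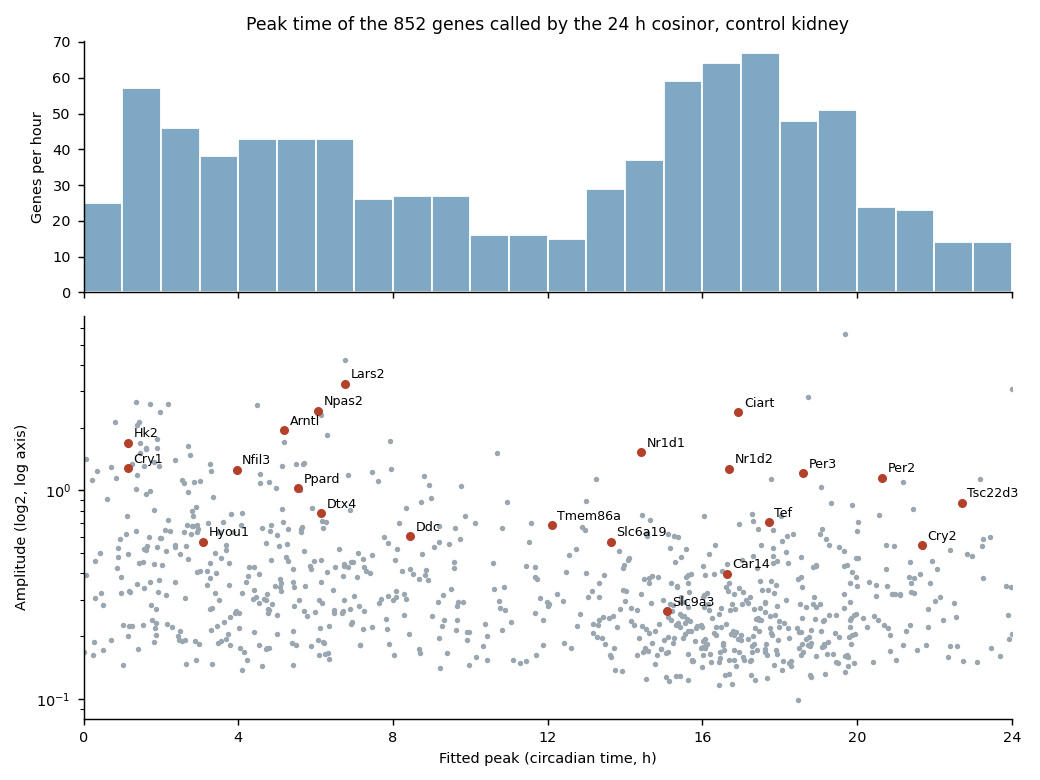
Upper panel, number of genes called by the cosinor in each hour of fitted peak time, and lower panel, amplitude (log2 scale, drawn on a log axis) against fitted peak in hours of circadian time, with 1 point a gene and named genes in red. Genes gather between CT13 and CT20 and between CT1 and CT7, and the labelled clock genes stand above most genes of their hour.

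Among protein-coding genes with a mean of at least 5 CPM, those with the largest amplitudes were named in each window. Around CT4 these were Arntl, Nfil3, Slc16a1 and Ppard, described above. Around CT8, Npas2, Dtx4 and Avpr1a were joined by Lars2 (chromosome 9, 123366927 to 123462666), a mitochondrial leucyl-tRNA synthetase, at 4804 and 54.9 CPM at CT4, 5609.5 and 91.1 at CT8, 863 and 51.8 at CT12, 52.6 and 55.1 at CT16, 54.4 and 67.6 at CT20 and 118 and 51.7 at CT24. Its replicate 1 stood far above replicate 2 at CT4, CT8 and CT12, and the call (adjusted p = 0.0421) was lost in 10 of 12 fits without 1 library. Around CT12 the leaders were Tmem86a (chromosome 7, 47050601 to 47054777), a lysoplasmalogenase, with an amplitude of 0.68 ± 0.08 (SE) at CT12.1 ± 0.44 h (SE), the neutral amino acid transporter Slc6a19 with 0.57 ± 0.10 (SE) at CT13.6 ± 0.69 h (SE), the imprinted zinc finger gene Zim1 with 0.57 ± 0.12 (SE) and the peptidase Amz1 with 0.49 ± 0.10 (SE). Tmem86a was called in all 12 fits without 1 library, Slc6a19 in 11, and Zim1 and Amz1 in 5 each. With the inner medulla score as a covariate Slc6a19, Zim1 and Amz1 were not called, nor were Slc6a19 and Amz1 with the fat score. Slc6a19 was at 525 and 452 CPM at CT12 and 182 and 164 CPM at CT24. Around CT16, where Ciart had a larger amplitude but a mean below 5 CPM, the genes were Nr1d1, Nr1d2, Rnf24 and Tspan4, of which Rnf24 was not called with either score, and around CT20 they were Per3, Per2, Bhlhe41 and Nat8f6.

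Around CT24 the named genes were Hk2, Ppp1r3b, Pnpla3 and Thrsp. Hk2 (chromosome 6, 82725025 to 82774454), a hexokinase of muscle and fat, was at 23.2 and 11.1 CPM at CT4, 4.19 and 14.6 at CT8, 4.65 and 4.82 at CT12, 9.57 and 2.37 at CT16, 10.2 and 4.43 at CT20 and 48.5 and 71.2 at CT24. Thrsp (chromosome 7, 97412938 to 97417730), a lipogenic factor, was at 142 and 49.7 CPM at CT4, 26.6 and 62.2 at CT8, 29.6 and 19.5 at CT12, 48.8 and 14.2 at CT16, 39.8 and 14.9 at CT20 and 176 and 288.3 at CT24. In both, CT24 was highest and CT4 replicate 1 next, which are the 3 libraries with the most fat markers. Ppp1r3b, a glycogen-targeting subunit of protein phosphatase, and Pnpla3, a lipid droplet acyltransferase and lipase, were also highest in these 3. The amplitudes were 1.69 ± 0.33 (SE) for Hk2, 1.64 ± 0.32 (SE) for Ppp1r3b, 1.59 ± 0.34 (SE) for Pnpla3 and 1.51 ± 0.32 (SE) for Thrsp. With the fat score as a covariate none of the 4 was called (edgeR adjusted p = 0.185, 0.274, 0.188 and 0.408). Of the 8 fat markers, all were detected, Adipoq, which defines fat cells, lay between 2.53 and 68.1 CPM, and 1, Fabp4, passed a test of time, that of CT12 against CT24. The part of fat in these 4 genes was not tested beyond that covariate.

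**Figure D3:**
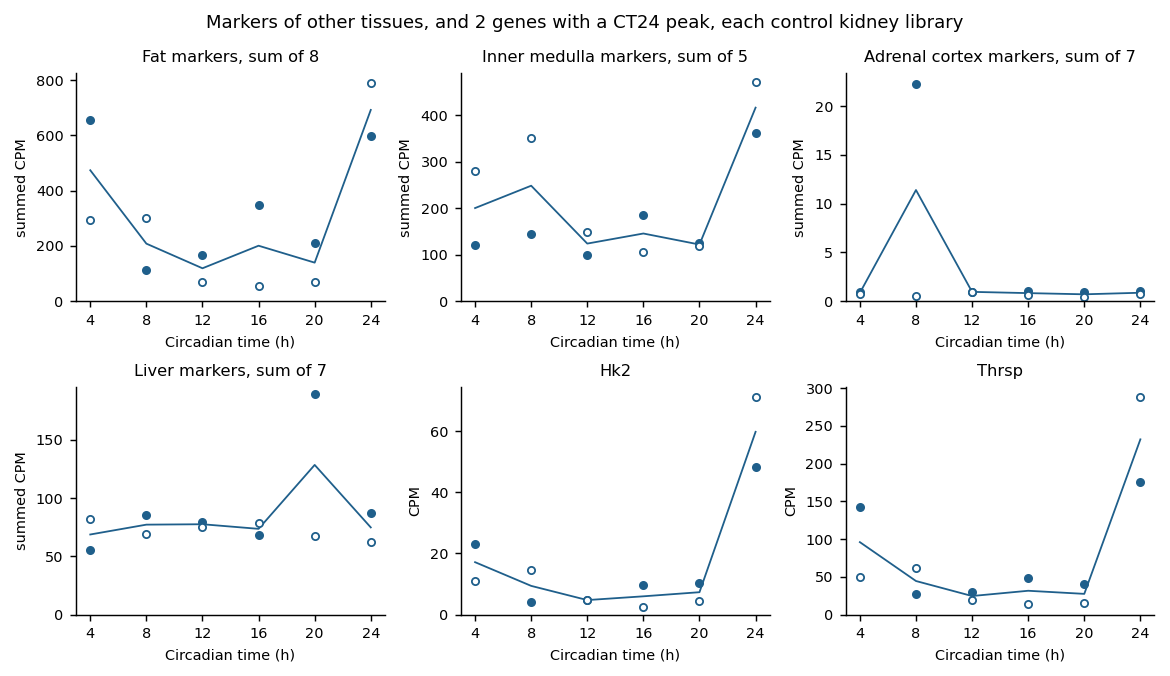
Summed CPM of markers of fat, inner medulla, adrenal cortex and liver, and CPM of Hk2 and Thrsp, in each control kidney library (filled, replicate 1; open, replicate 2; line, mean) against circadian time in hours. Fat and inner medulla markers are highest at CT24 as are Hk2 and Thrsp, adrenal markers stand out in 1 library of CT8 and liver markers in 1 library of CT20.

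Genes that peak near CT12 or CT24 escape the first contrast, so these times were compared with each other. A total of 1077 genes (5.19%) differed, 452 (2.18%) higher at CT12 and 625 (3.01%) higher at CT24. With library sizes alone in place of TMM factors, the split was 527 and 307. Each time had 2 libraries, and the count depended on them, with 5 genes called without CT24 replicate 2, 307 without CT24 replicate 1, 118 and 129 without CT12 replicate 1 and 2, and 696 and 692 without CT20 replicate 1 and 2. The inner medulla score as a covariate left 528, and without both odd libraries 296 genes were higher at CT12 and 489 at CT24. By smallest p the genes higher at CT24 were Hspb1, Tsc22d3, Cry1, Ypel2 and Hyou1. Hspb1 (chromosome 5, 135887919 to 135889563), the small heat shock protein HSP27, was at 32.3 and 29.4 CPM at CT4, 25.9 and 30.8 at CT8, 16.4 and 18.2 at CT12, 23.2 and 23.6 at CT16, 19.9 and 19.95 at CT20 and 41.4 and 48.1 at CT24. CT24 was highest and CT12 lowest, with a log2 ratio of CT12 over CT24 of -1.44 (SE 0.09, edgeR adjusted p = 8.34e-05). Tsc22d3 (chromosome X, 140539528 to 140600659), the glucocorticoid-induced leucine zipper GILZ, fell by 1.96 from 111 and 136 CPM at CT24 to 31.9 and 34.7 CPM at CT12 (SE 0.19, edgeR adjusted p = 0.00181). Cry1, Tsc22d3, Hspb1 and Ypel2 kept the call in all 12 fits without 1 library.

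Higher at CT12 by smallest p were Igfbp3, Ddc, Osbpl3, Neu1 and a numbered locus of unstated origin (XLOC_075474). Ddc (chromosome 11, 11814101 to 11898144), the aromatic amino acid decarboxylase that makes dopamine in the proximal tubule, was at 83.5 and 89.3 CPM at CT4, 92.1 and 101 at CT8, 97.2 and 88.9 at CT12, 53.8 and 60.9 at CT16, 47.1 and 44.6 at CT20 and 49.7 and 51.1 at CT24. It formed a plateau from CT4 to CT12 and a step down from CT16 to CT24, so that both contrasts passed, CT4 and CT8 against CT16 and CT20 with 0.84 (SE 0.06, edgeR adjusted p = 4.34e-05) and CT12 against CT24 with 0.82 (SE 0.09, edgeR adjusted p = 0.00355). Its peak was fitted at CT8.4 ± 0.25 h (SE). Igfbp3, a carrier of insulin-like growth factors, stood at 405 and 362 CPM at CT12 and 189.9 and 196 CPM at CT24, a log2 difference of 0.93 (SE 0.10, edgeR adjusted p = 0.00355). Neu1, the lysosomal sialidase, was at 319 and 319 CPM and 203 and 206 CPM, a log2 difference of 0.58 (SE 0.07, edgeR adjusted p = 0.00364), and Osbpl3, an oxysterol-binding protein, at 226 and 229.9 CPM and 154 and 150.3 CPM, a log2 difference of 0.52 (SE 0.06, edgeR adjusted p = 0.00355). All 5 of these calls were lost in 1 of 12 fits, the one without CT24 replicate 2.

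Transport along the nephron was then followed by lists of genes, whose counts stand against shares of 1.75% and 2.51% over all tested genes. For the cosinor that share was 4.1%, and for CT12 against CT24 it was 2.18% higher at CT12 and 3.01% higher at CT24. Without both odd libraries, 133 and 159 of all 21468 tested genes passed the main contrast in the 2 directions, and 491 passed the cosinor. Of 42 tested transporters of the proximal tubule, 2 were higher at CT4 and CT8 and 6 at CT16 and CT20 (1 and 4 without both odd libraries), and the cosinor called 10 (3 without both odd libraries and 6 with the fat score). The median log2 fold change was -0.17 against 0.01 over all tested genes. Those higher at CT16 and CT20 were the cystine transporter subunit Slc7a9, the sodium/hydrogen exchanger Slc9a3 (NHE3), the carnitine transporter Slc22a5, the urate transporter Slc2a9, the citrate transporter Slc13a2 and the organic cation transporter Slc22a4. Slc9a3 (chromosome 13, 74121457 to 74169442), through which the proximal tubule takes up most of its sodium, was at 179 and 167 CPM at CT4, 171 and 176 at CT8, 233 and 221 at CT12, 236 and 238 at CT16, 208 and 196 at CT20 and 163 and 164 at CT24. It was highest at CT12 and CT16, with a contrast of -0.33 (SE 0.05, edgeR adjusted p = 0.00263) and a peak at CT15.1 ± 0.43 h (SE). Slc7a9 had 83.0 to 99.4 CPM at CT4 and CT8 and 113 to 136 CPM at CT16 and CT20, a contrast of -0.41 (SE 0.04, edgeR adjusted p = 0.000296). Slc2a9 went from 15.0 to 18.8 CPM to 22.5 to 23.98 CPM, a contrast of -0.50 (SE 0.08, edgeR adjusted p = 0.0041). The 2 in the other direction were Slc16a1 and the amino acid transporter Slc7a8, with 0.29 (SE 0.06, edgeR adjusted p = 0.0226). Slc34a1, the main phosphate transporter, and Slc5a2, the glucose transporter SGLT2, did not pass, at -0.14 and -0.06 (adjusted p = 0.432 and 0.767). Summed proximal tubule markers were 23019 to 26215 CPM at CT4 and CT8 and 24444 to 28243 CPM at CT16 and CT20. The 9 markers had a median log2 fold change of -0.18, near that of the transporters, and their part in the list was not tested. The fits without 1 library gave 5 to 7 genes higher at CT16 and CT20, and 13 without CT16 replicate 1. The cosinor count was 5 without CT20 replicate 1 and 6 without CT24 replicate 1.

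In the distal nephron and collecting duct, 2 of 36 tested genes were higher at CT4 and CT8 and 6 at CT16 and CT20, but 1 and 0 without both odd libraries and 0 and 3 with the fat score. Among the 6 were the beta subunit of the epithelial sodium channel Scnn1b, its activating protease Prss8, the sodium pump subunit Atp1b1, the proton pump subunit Atp6v1b1 and the potassium channel Kcnj15. Scnn1b was at 35.2 to 36.7 CPM at CT4 and CT8 and 40.5 to 46.7 CPM at CT16 and CT20, a contrast of -0.28 (SE 0.05, edgeR adjusted p = 0.0135). Prss8 had 6.99 to 8.44 CPM against 10.3 to 11.9 CPM, a contrast of -0.52 (SE 0.10, edgeR adjusted p = 0.0116). The tight junction genes Cldn8 and Cldn10 were the 2 in the other direction, with 0.39 and 0.25. The alpha subunit of the sodium channel, Scnn1a, a known target of the clock in the collecting duct, was at 109 and 134 CPM at CT4, 107 and 112 at CT8, 100.3 and 101 at CT12, 108 and 121 at CT16, 121 and 137 at CT20 and 117 and 119 at CT24 and did not pass (contrast -0.07, adjusted p = 0.677; cosinor adjusted p = 0.18). Without CT20 replicate 1 the 6 fell to 2 and without CT20 replicate 2 or CT4 replicate 1 to 3, and 7 passed without CT16 replicate 1.

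Among 15 regulators of salt transport through WNK kinases, SGK kinases and ubiquitin, 1 differed in the main contrast, a share near the 4.27% of all tested genes, and 1 without both odd libraries. Usp2 (chromosome 9, 44067021 to 44095627), a deubiquitinase that stabilises the sodium channel, was at 137 and 109.7 CPM at CT4, 84.2 and 65.7 at CT8, 99.1 and 129 at CT12, 195 and 226 at CT16, 201 and 175 at CT20 and 120.4 and 136 at CT24. It was lowest at CT8 and highest at CT16, and the contrast was -1.04 (SE 0.12, edgeR adjusted p = 0.000518). Sgk1 (chromosome 10, 21882184 to 21999903), a kinase induced by aldosterone and glucocorticoids, did not pass that contrast (adjusted p = 0.677) but was called by the cosinor, with an amplitude of 0.58 ± 0.11 (SE) at CT23.3 ± 0.75 h (SE). This call was lost in 5 of 12 fits without 1 library and without both odd libraries (edgeR adjusted p = 0.0636). Its libraries of CT16 were far apart, at 86.2 and 181 CPM. Of 26 tested genes for hormones and receptors of blood pressure, 3 were higher at CT4 and CT8 (1 without both odd libraries), among them Avpr1a and Npr3, the clearance receptor of natriuretic peptides, and 1 was higher at CT16 and CT20 (0 without them). Ren1 (chromosome 1, 133350510 to 133360325), the gene of renin, was at 69.5 and 74.5 CPM at CT4, 76.9 and 70.0 at CT8, 112 and 83.9 at CT12, 99.0 and 99.9 at CT16, 81.5 and 78.6 at CT20 and 62.5 and 53.8 at CT24. It was highest at CT12 and CT16 and lowest at CT24, with a fitted peak at CT14.0 ± 0.69 h (SE). The angiotensin receptor gene Agtr1a was likewise higher at CT12 than at CT24, by 0.51 (SE 0.09, edgeR adjusted p = 0.0103), and both calls were lost without CT12 replicate 1 or CT24 replicate 2.

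The folding machinery of the endoplasmic reticulum gave 10 of 20 tested genes higher at CT4 and CT8 and 2 at CT16 and CT20, with a median log2 fold change of 0.32. The 10 were Sdf2l1, Hyou1, Hsp90b1, Pdia6, Hspa5, Calr, Dnajb11, Pdia3, Pdia4 and Dnajc3, chaperones and disulfide isomerases. Without both odd libraries 4 and 1 were called, and leaving out 1 library gave 6 to 11 and 1 or 2, the 6 without CT20 replicate 1 or 2. Hyou1 (chromosome 9, 44379490 to 44392369), an HSP70-like chaperone, was at 329.9 and 343 CPM at CT4, 297 and 254 at CT8, 180.5 and 169 at CT12, 169.7 and 191 at CT16, 195 and 191 at CT20 and 331 and 342 at CT24, high from CT24 to CT8 and low from CT12 to CT20. The contrast was 0.72 (SE 0.08, edgeR adjusted p = 0.00034). Hsp90b1, the HSP90 of the endoplasmic reticulum, went from 629.5 to 693 CPM to 364 to 450.0 CPM, a contrast of 0.68 (SE 0.08, edgeR adjusted p = 0.000919). Hspa5 (BiP), the leading chaperone, was highest at CT24, with 915 and 951 CPM, and lowest at CT12, with 346 and 364 CPM. Herpud1, which serves degradation rather than folding, ran the opposite way, at 149 to 183 CPM and 253 to 315 CPM, a contrast of -0.73 (SE 0.08, edgeR adjusted p = 0.000329), and so did the J-domain cofactor Dnajb9. At CT24, 12 of the 20 were higher than at CT12 and 0 lower, with 4 without CT24 replicate 1 or CT12 replicate 1, 3 without CT12 replicate 2 and 0 without CT24 replicate 2.

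Genes of the cytosolic heat shock response and of cold response had another time course. In the main contrast 2 of 21 tested genes were higher at CT4 and CT8 and 2 at CT16 and CT20 (1 and 0 without both odd libraries), while 12 were higher at CT24 than at CT12 and 1 lower. The 12 fell to 1 without CT24 replicate 2 or either library of CT12, and to 4 without CT24 replicate 1. In the main contrast 7 were higher at CT4 and CT8 without CT16 replicate 2, and 6 at CT16 and CT20 without CT16 replicate 1. Hsph1, an HSP110 chaperone, was at 105 and 141 CPM at CT4, 118 and 122 at CT8, 61.2 and 75.3 at CT12, 98.1 and 185 at CT16, 92.9 and 111 at CT20 and 199.9 and 219 at CT24, high at CT24 and in CT16 replicate 2. Hspa8, the constitutive HSP70, was at 1073 to 1566 CPM at CT4 and CT8 and 1620.1 to 2419 CPM at CT16 and CT20, with a contrast of -0.58 (SE 0.13, edgeR adjusted p = 0.0261). The gene higher at CT12 was Cirbp, an RNA-binding protein induced by cold, at 25.5 and 24.3 CPM at CT12 and 10.8 and 13.3 CPM at CT24, a log2 difference of 0.98 (SE 0.19, edgeR adjusted p = 0.0182). Rbm3, its cold-induced relative, was at 22.1 to 35.0 CPM at CT4 and CT8 and 37.5 to 41.6 CPM at CT16 and CT20, a contrast of -0.43 (SE 0.08, edgeR adjusted p = 0.0116). Erythroid and inner medulla markers were also highest at CT24. With the inner medulla score as a covariate 7 genes were higher at CT24, and with the fat score 15, while 8 were without both odd libraries. The part of erythroid cells was not tested.

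Of 18 tested genes that respond to glucocorticoids, 1 was higher at CT4 and CT8, Cdkn1a, and 3 at CT16 and CT20, which were Zbtb16, Errfi1 and Klf15 (1 and 0 without both odd libraries). The cosinor called 6, and 6 without both odd libraries. Zbtb16 (chromosome 9, 48654297 to 48836222), a zinc finger repressor, was at 50.4 and 27.4 CPM at CT4, 5.79 and 10.9 at CT8, 7.43 and 9.41 at CT12, 35.2 and 48.2 at CT16, 54.6 and 48.2 at CT20 and 17.4 and 27.7 at CT24, lowest at CT8 and CT12. Its contrast was -1.37 (SE 0.22, edgeR adjusted p = 0.00477). Between CT12 and CT24, 5 were higher at CT24, among them Tsc22d3 and the immunophilin Fkbp5, at 50.8 and 46.6 CPM at CT12 and 107 and 125 CPM at CT24, a log2 difference of -1.32 (SE 0.21, edgeR adjusted p = 0.00833). The metallothionein Mt2 was higher at CT12. The 5 fell to 2 without CT12 replicate 1 and to 1 without CT12 replicate 2 or CT24 replicate 2. In the main contrast the 3 became 6 without CT16 replicate 1 and 1 without CT20 replicate 1. Tsc22d3 was highest of all times at CT24 and lowest at CT12, with a fitted peak at CT22.7 ± 0.41 h (SE).

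Cholesterol synthesis and its SREBP regulators gave 6 of 22 tested genes higher at CT4 and CT8 and 0 the other way, and 0 of them without both odd libraries, 2 without CT20 replicate 2 and 3 without CT20 replicate 1 or CT4 replicate 1. Among these were Msmo1, Srebf2, Idi1, Insig1 and Srebf1. Msmo1, a sterol demethylation enzyme, was at 38.8 and 32.7 CPM at CT4, 52.1 and 46.4 at CT8, 31.4 and 22.8 at CT12, 23.4 and 25.7 at CT16, 25.9 and 26.6 at CT20 and 42.4 and 53.3 at CT24, low from CT12 to CT20, with a contrast of 0.73 (SE 0.11, edgeR adjusted p = 0.0041). Between CT12 and CT24, 7 were higher at CT24 and 0 at CT12, and the 7 fell to 4 and 1 without CT12 replicates 1 and 2 and to 0 without CT24 replicate 2. For fatty acid oxidation and its regulator PPAR alpha, 2 of 26 genes were higher at CT4 and CT8 and 5 at CT16 and CT20 (1 and 4 without both odd libraries). Cpt1a (chromosome 19, 3322334 to 3385733), which admits fatty acids to mitochondria, was at 423 and 494 CPM at CT4, 416 and 441 at CT8, 539 and 595 at CT12, 647 and 664 at CT16, 644 and 625 at CT20 and 424 and 421 at CT24, highest at CT16 and CT20. Its contrast was -0.54 (SE 0.06, edgeR adjusted p = 0.00060), near that of Ppara itself, -0.48 (SE 0.07, edgeR adjusted p = 0.0022), and of the fatty acid binding protein Fabp3, -0.58 (SE 0.06, edgeR adjusted p = 0.000173). The mitochondrial carnitine acyltransferases Cpt2 and Crat were the other 2, and the 5 fell to 3 without CT20 replicate 1. Pdk4, the kinase that blocks pyruvate oxidation, ran opposite, at 32.3 to 84.0 CPM and 18.7 to 39.3 CPM with overlap, a contrast of 1.17 (SE 0.19, edgeR adjusted p = 0.00428), as did the acyl-CoA thioesterase Acot1, with 0.83 (SE 0.15, edgeR adjusted p = 0.00826).

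In glucose and NAD metabolism 5 of 24 tested genes were higher at CT16 and CT20 and 0 at CT4 and CT8 (2 and 0 without both odd libraries). Nampt (chromosome 12, 32819545 to 32853349), the rate-limiting enzyme of NAD salvage, was at 178 and 185 CPM at CT4, 152 and 174 at CT8, 149 and 171 at CT12, 220.3 and 202 at CT16, 247 and 244 at CT20 and 200.3 and 229 at CT24, lowest at CT8 and CT12 and highest at CT20. The contrast was -0.40 (SE 0.05, edgeR adjusted p = 0.000907). The others were the aminotransferase Gpt2, glutamine synthetase Glul and the kinases Pdk1 and Pdk2. The 5 fell to 2 without CT20 replicate 1 or 2 or CT4 replicate 2 and to 3 without CT4 replicate 1 or CT8 replicate 2 or with the fat score. Pck1, which makes phosphoenolpyruvate for gluconeogenesis, was called by the cosinor with an amplitude of 0.42 ± 0.08 (SE) at CT22.1 ± 0.70 h (SE), and went from 2662 and 1788 CPM at CT8 to 3669 and 3976 CPM at CT24. Of 32 tested genes for detoxification and haem, 5 were higher at CT16 and CT20 and 0 at CT4 and CT8 (2 and 0 without both odd libraries). Besides Cyp24a1, they were Por, the electron donor of cytochromes P450, at 282 to 321 CPM and 411 to 444 CPM, a contrast of -0.50 (SE 0.05, edgeR adjusted p = 0.000278), the glutathione transferase Gstt2, with -0.66 (SE 0.06, edgeR adjusted p = 0.000172), Ugt8a and Fmo2. The count was 10 without CT16 replicate 1 and 4 to 6 without any other library.

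Cell cycle genes gave 1 of 21 higher at CT4 and CT8, Cdkn1a, and 3 at CT16 and CT20, Wee1, Ccnd1 and Ccne1 (1 and 1 without both odd libraries). Wee1 (chromosome 7, 110122046 to 110143286), a mitotic inhibitor kinase and a direct clock target, was at 19.5 and 18.2 CPM at CT4, 14.9 and 11.4 at CT8, 16.2 and 19.4 at CT12, 27.9 and 29.1 at CT16, 37.8 and 37.8 at CT20 and 26.3 and 26.3 at CT24, with the lowest levels at CT8 and the highest at CT20. The contrast was -1.05 (SE 0.10, edgeR adjusted p = 0.000144), and it was kept in every fit without 1 library, while Ccnd1 and Ccne1 were lost in 8 and 11 of 12. Without CT16 replicate 1, 7 cell cycle genes were higher at CT16 and CT20, and 1 with either score as a covariate. Immediate early genes such as Fos, Egr1 and Nr4a1, which mark recent stimulation, gave 0 of 16 in the reported edgeR tests, at most 1 in a fit without 1 library or without both odd libraries and 2 in CT12 against CT24 with the fat score, with 5, 4 and 3 at an unadjusted p under 0.05 in the main contrast, CT12 against CT24 and the cosinor, and 2, 1 and 1 called by DESeq2.

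**Figure D4:**
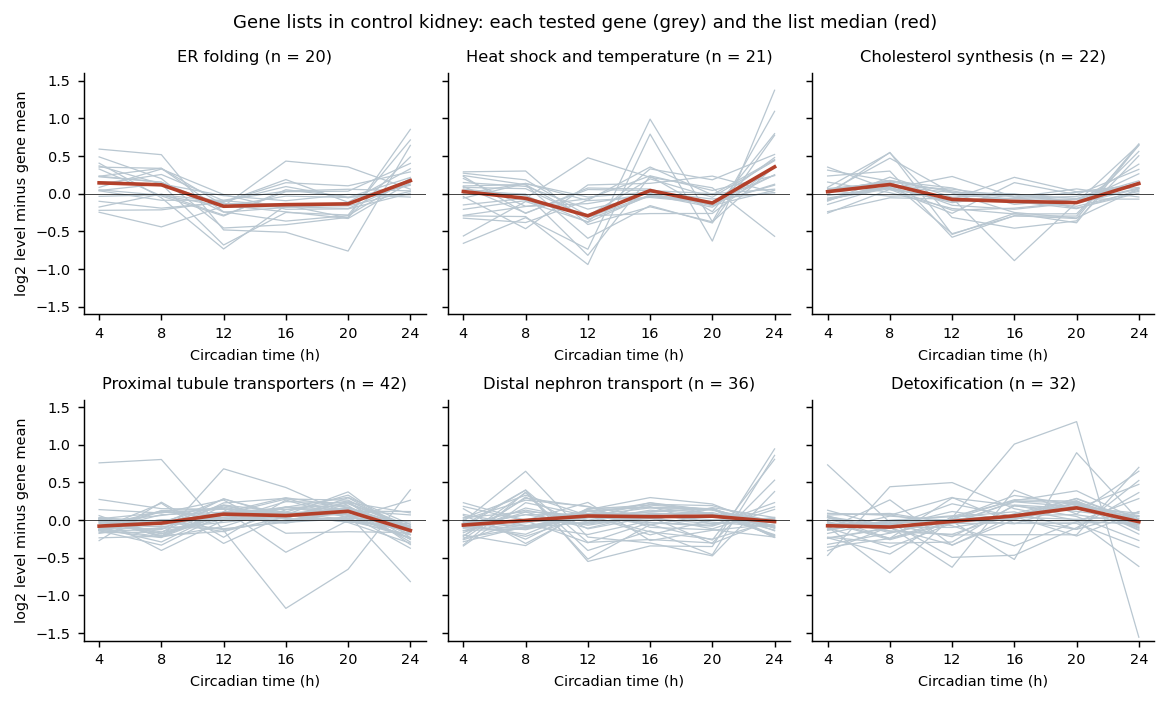
Time course of 6 gene lists in control kidney, as log2 level minus the mean of the gene over the 6 times, with each tested gene in grey and the list median in red, against circadian time in hours. The endoplasmic reticulum list is high from CT24 to CT8, heat shock genes are lowest at CT12 and highest at CT24, and medians of the transporter lists stay within a narrow band.

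Sleep-deprived kidneys gave the same contrast in libraries not used above, and in all 12 the time of the characteristics differed from that of the title. There 193 of 21170 genes (0.912%) passed, 96 (0.453%) higher at CT4 and CT8 and 97 (0.458%) higher at CT16 and CT20, and the count went from 36 to 160 without 1 library, with 36 and 41 without the CT16 replicates 2 and 1 and 51 without CT4 replicate 2. Of the 364 control genes higher at CT4 and CT8, 363 were tested there, 352 (97.0%) had the same sign and 81 (22.3%) were also called, which is 84.4% of the 96. Of the 522 in the other direction, 521 were tested, 487 (93.5%) had the same sign and 59 (11.3%) were also called, 60.8% of the 97. Over all genes tested in both, 63.2% had the same sign, and 0 control genes were called in the opposite direction. The median log2 fold change of the first set was 0.48 in control and 0.32 in SD kidney, and of the second -0.34 and -0.18. Both sets were chosen by their control values, which favours larger medians in control, so these medians are no test of a change in size. Among the clock genes, 4 were higher at CT4 and CT8 and 10 at CT16 and CT20 in SD kidney. Arntl lay at 32.8 to 47.8 CPM and 4.39 to 9.05 CPM there, with a contrast of 2.74 (SE 0.20, edgeR adjusted p = 0.00038). Per3 gave -1.83 (SE 0.16, edgeR adjusted p = 0.000841), Tef -1.09 (SE 0.08, edgeR adjusted p = 0.00038) and Avpr1a 1.25 (SE 0.09, edgeR adjusted p = 0.00038).

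The difference of the contrast between control and SD kidney was tested for each of 21528 genes, and 0 passed in edgeR (0%; 1 without control CT8 replicate 2). At an unadjusted p under 0.05 there were 1128, near the 0.05 share of tests expected if no gene differed, and 6 were called by DESeq2. The smallest p-values were those of Gpt2, Olfr1033, Reep6, Nav2 and Palld (adjusted p from 0.261 to 0.525). Gpt2, an alanine aminotransferase of mitochondria, was at 58.0 to 76.7 CPM at CT4 and CT8 and 69.3 to 98.6 CPM at CT16 and CT20 in control, and at 82.8 to 104 CPM and 59.6 to 85.0 CPM in SD. The difference of its contrasts was -0.69, with a 95% interval from -0.93 to -0.44. For Arntl it was 0.63, with a 95% interval from 0.12 to 1.13, for Npas2 0.94, with a 95% interval from 0.33 to 1.55 and for Nr1d2 -0.54, with a 95% interval from -0.89 to -0.18, all intervals being unadjusted. These clock genes were picked from the clock lists and did not pass after adjustment, and the other clock genes are not given here.

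**Figure D5:**
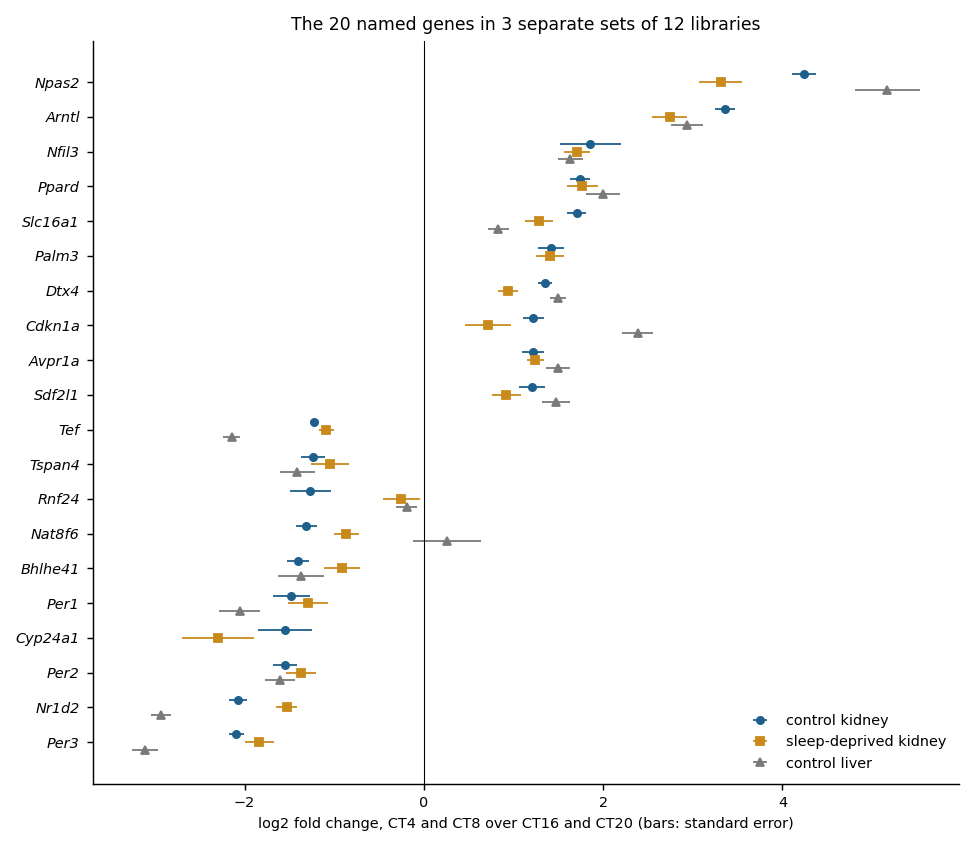
Log2 fold change of CT4 and CT8 over CT16 and CT20 with its standard error for the 20 named genes, in control kidney (circles), sleep-deprived kidney (squares) and control liver (triangles), 12 libraries each. All 20 genes lie on the same side of 0 in both kidney sets, and Nat8f6 lies on the other side in liver, where Palm3 and Cyp24a1 were not tested.

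The same contrast in control liver asked which differences both organs had. There 2077 of 19189 genes (10.8%) passed, 1194 (6.22%) higher at CT4 and CT8 and 883 (4.6%) higher at CT16 and CT20, or 714 and 1589 with library sizes alone, and 1002 to 1348 in all without CT4 replicate 2 or 1 of the libraries of CT16 and CT20. Of the kidney genes higher at CT4 and CT8, 326 were tested in liver, 253 (77.6%) had the same sign, 122 (37.4%) were called in the same direction and 9 in the opposite one. Of those higher at CT16 and CT20, 492 were tested, 346 (70.3%) had the same sign, 103 (20.9%) were called and 21 were called in the opposite direction. Over all genes tested in both organs 52.5% had the same sign. The shared genes were 10.2% and 11.7% of the liver calls in the 2 directions. Clock genes were called 5 and 10 times in liver.

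The difference between organs was tested for each gene in a fit over both, in which 1165 of 22057 genes (5.28%) passed, 487 (2.21%) with a contrast more positive in kidney and 678 (3.07%) in liver, or 747 and 340 with library sizes alone. Of the 886 kidney genes, 170 (19.2%) passed, and of the 852 cosinor genes 129 (15.1%) differed in the cosinor (672, or 3.05%, of all). The 886 and 852 genes were chosen by the same kidney libraries that enter these tests, which by itself raises their shares. Without 1 library the 2 counts over all genes went from 540 to 1299 and from 374 to 984. Both were lowest without kidney CT16 replicate 2, and without both odd libraries they were 356 and 439. Whether kidney and liver came from the same mice is not stated for this experiment. Of the 396 genes called by the cosinor in both organs, 219 peaked within 2 h and 45 more than 6 h apart, and the median difference of kidney minus liver was -0.32 h. The title times had been chosen because clock peaks then lay close to those of liver, so this closeness is not independent of that choice.

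Of the clock genes, Clock, Per3, Nr1d2 and Tef differed between organs in the contrast, each with the smaller difference in kidney. For Tef it was -1.22 in kidney and -2.14 in liver (difference 0.92, SE 0.11, edgeR adjusted p = 0.000207), and for Per3 -2.09 and -3.11 (difference 1.02, SE 0.18, edgeR adjusted p = 0.00299). In the cosinor, Npas2 and Bhlhe41 differed (adjusted p = 0.0136 and 0.0299). Arntl peaked at CT5.2 in kidney and CT5.3 in liver, a closeness tied to the choice of the title times. The difference of its contrasts did not pass (difference 0.42, SE 0.22, edgeR adjusted p = 0.288). The smallest p-values outside the clock were those of Car14, Gm15348, Mreg, Tubb2a and Tjp3. Car14 (chromosome 3, 95897768 to 95904691), a membrane-bound carbonic anhydrase, was at 78.6 and 84.1 CPM at CT4, 78.5 and 83.7 at CT8, 119.7 and 115 at CT12, 122 and 132 at CT16, 129 and 128 at CT20 and 85.2 and 83.6 at CT24 in kidney, low from CT24 to CT8 and high from CT12 to CT20. In liver it was at 36.9 to 42.1 CPM at CT4 and CT8 and 28.0 to 31.2 CPM at CT16 and CT20, so the contrast was -0.64 in kidney and 0.51 in liver (difference -1.16, SE 0.09, edgeR adjusted p = 5.74e-06). Slc9a3, the exchanger described above, was likewise higher at CT16 and CT20 in kidney and at CT4 and CT8 in liver, where it was at 2.05 to 3.20 CPM at CT4 and CT8 and 1.51 to 1.81 CPM at CT16 and CT20 (difference -1.05, SE 0.11, edgeR adjusted p = 6.28e-05). Nampt differed in size, with -0.40 in kidney and -1.25 in liver (difference 0.85, SE 0.11, edgeR adjusted p = 0.000386), and Cdkn1a with 1.22 and 2.38 (difference -1.17, SE 0.21, edgeR adjusted p = 0.00409). Slc16a1 was the reverse, larger in kidney, with 1.71 and 0.83 (difference 0.87, SE 0.17, edgeR adjusted p = 0.00638).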

How the data were processed

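Total RNA, depleted of ribosomal RNA, was sequenced with strand kept. As the authors describe, reads were trimmed with Trim Galore, aligned with HISAT2 to GRCm38, filtered by mapping quality with SAMtools and counted per gene on the reverse strand with featureCounts. The deposited values are raw counts for 54833 features, of which 49326 carried a symbol, and 32.2 to 58.3 M counts per control kidney library set the precision. Here, filterByExpr, TMM factors and the quasi-likelihood test of edgeR 4.0.16 (R 4.3.3) were applied with Benjamini-Hochberg adjustment at 0.05. The contrasts were taken from a fit with 1 mean per time over 12 libraries. The cosinor had sine and cosine terms of 24 h, with peak and amplitude errors by the delta method. Organs and conditions were compared by interaction terms in joint fits over 24 libraries. CPM printed here were counts over library totals, without TMM factors. Alternatives were DESeq2 1.42.0, a rank test in the style of JTK_CYCLE, other scalings, no filter and libraries left out. The code was tested on simulated data. Times came from titles.

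Members and gene lists were chosen with earlier results of these data known. Genes named were all clock genes, the 10 largest non-overlapping contrasts in each direction at a mean of at least 5 CPM, the 4 largest cosinor amplitudes of protein-coding genes in each of 6 windows at the same mean level, the smallest p-values in lists, in difference tests and in CT12 against CT24, and examples that did not pass. Cerebellum and forebrain libraries and SD liver were not analysed here. Replicates with the same number were not paired by any label. Coordinates are those of the GRCm38 annotation used here. A few genes counted in the lists are not reported here by name.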

Additional observations from a re-analysis of the deposited data

Results flagged for a closer look

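Among the 96 sets of 4 libraries checked for a value far from the other 3, 8 had a gap above the critical share of the range (0.829), a rate that chance gives in about 1 set in 20. Clock stood at 106 CPM in CT16 replicate 1, below the other libraries of CT16 and CT20, the nearest of which were at 111.8 and 112.0 CPM. Cdkn1a was at 14.9 CPM in CT4 replicate 1, with the lowest library of CT4 and CT8 at 12.1 CPM. Lars2 was at 67.6 CPM in CT20 replicate 2, with the next library at 55.1 CPM, and Amz1 at 6.52 CPM in CT16 replicate 1, with the next at 5.32 CPM. Collecting duct markers summed to 619 CPM in CT16 replicate 1 against 482 CPM in the lowest of the 4. Leukocyte markers summed to 1063 CPM in CT8 replicate 2, where the lowest library had 297 CPM. Adrenal cortex markers summed to 22.3 CPM in CT8 replicate 1 against at most 0.994 CPM in the other 3, and liver markers to 189 CPM in CT20 replicate 1 against at most 78.5 CPM. The part of these cells in any gene was not tested beyond leaving the last 2 libraries out.

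The contrast differed between kidney and liver with the smallest p-values in 5 genes. The difference was -1.16 for Car14 (kidney -0.64, liver 0.51), -3.70 for Gm15348 (0.16 and 3.86), -1.41 for the melanosome gene Mreg (-0.50 and 0.91), -1.78 for the tubulin gene Tubb2a (0.75 and 2.53) and -1.27 for the tight junction gene Tjp3 (-0.05 and 1.21), with edgeR adjusted p from 5.74e-06 to 1.69e-05. The cosinor differed between organs with the smallest edgeR adjusted p in Gm15348 and Mreg (6.11e-05 each), Wnt5b (8.14e-05), and Car14 and the lysyl oxidase Loxl4 (8.33e-05 each).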

How the results depend on the processing

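Counts of called genes moved with the filter, the tool and single libraries, and the cause was not tested beyond the construction of each alternative. Without a filter on low counts, 2069 genes passed CT4 and CT8 against CT16 and CT20, 2560 passed CT12 against CT24, 4442 any time, 2391 the cosinor, 1057 SD kidney, 3212 liver, 218 the control and SD difference, 2029 the kidney and liver difference and 2137 that of the cosinor. DESeq2 called 2448 for any time, 1809 in the cosinor, 545 in SD kidney, 6 for control against SD, 2167 for kidney against liver and 1809 for its cosinor. A rank test in the style of JTK_CYCLE, written for this report, called 53 rhythmic genes, 49 of them cosinor calls. It is not the program that the study used. Fitting only the 8 libraries left 445 genes in the main contrast, CT4 against CT16 alone gave 295 and CT8 against CT20 alone 400. Cry1 was reversed in CT8 against CT20 alone (-0.36, edgeR adjusted p = 0.53).

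Chosen after seeing the data, leaving out both odd libraries gave 292 genes in the main contrast, 352 for any time, 491 in the cosinor, 356 for kidney against liver and 439 for its cosinor. The fat covariate left 461 in the cosinor and the inner medulla covariate 528 in CT12 against CT24. Without 1 library, counts ranged from 432 to 1259 in the main contrast, 5 to 1508 in CT12 against CT24, 304 to 1606 for any time, 491 to 982 in the cosinor, 36 to 160 in SD kidney, 1002 to 1973 in liver, 0 to 1 for control against SD, 540 to 1299 for kidney against liver and 374 to 984 for its cosinor.

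Deviations of libraries with the same replicate number correlated at -0.27 to 0.31 (median 0.10), while Lars2 was far higher in replicate 1 at CT4, CT8 and CT12. A factor shared by libraries of the same number was not tested beyond the replicate block. With the replicate block, 894 genes passed the main contrast, 1116 CT12 against CT24, 988 any time, 788 the cosinor, 93 SD kidney, 2291 liver, 0 control against SD, 1344 kidney against liver and 654 its cosinor. With the times of the characteristics the cosinor called 726 genes, 296 of them shared. Under the other alternatives run, the total counts stayed within 1.5 times of those reported, while their split could move more, as with library sizes alone and with the fat covariate in the main contrast (331 and 339). At 32.2 to 58.3 M counts, genes below the filter on low counts were not tested. Dbp was among them, and the cause of its near absence from the deposited counts was not tested.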

Other observations

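The gene lists were also followed outside the control kidney. Over all tested genes, the shares called in the 2 directions were 0.453% and 0.458% in SD kidney and 6.22% and 4.6% in liver. For the difference between kidney and liver the share was 5.28%. Of the 20 folding genes of the endoplasmic reticulum, 5 were higher at CT4 and CT8 and 1 at CT16 and CT20 in SD kidney, with a median log2 fold change of 0.22, and 14 and 1 in liver, with a median of 0.65. The difference between kidney and liver passed in 3 of them. Of the 22 cholesterol genes, 3 and 0 were called in SD kidney and 7 and 0 in liver, with medians of 0.33 and 0.25. Of the genes that respond to glucocorticoids, 0 and 3 of 18 were called in SD kidney and 2 and 2 of 19 in liver. Proximal tubule transporters gave 2 and 1 of 42 in SD kidney and 3 and 6 of the 33 that were tested in liver, and 7 differed between kidney and liver. Heat shock genes gave 0 and 0 of 21 in SD kidney, and 6 and 3 in liver.

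Promoter motifs were also counted in the genes of each window of peak time. An E-box stood in 16% (17 of 106) of the promoters of genes that peaked around CT20. The share was lowest around CT24, with 8.97% (7 of 78), against 10.6% over all tested genes. The D-box was rare, with 2.83% (3 of 106) around CT20, 2.33% (2 of 86) around CT8 and 1.13% (2 of 177) around CT16. It was absent from the other windows and stood in 0.839% of all tested. Among genes of the main contrast it stood in 2.11% (8 of 380) of those higher at CT16 and CT20 and 0.8% (2 of 250) of the others. The RRE stood in 3.6% (9 of 250) of the promoters of genes higher at CT4 and CT8. It stood in 1.58% (6 of 380) of those higher at CT16 and CT20 and in 2.48% of all tested. These shares are descriptions and were not tested.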
